A study of Homo sapiens with 6 samples.

Results

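The RNAs described here are the structural RNAs of 3 small ribonucleoprotein machines: the 7SL RNA genes RN7SL1, RN7SL2 and RN7SL3, the 7SK RNA gene RN7SK, and the RNase MRP and RNase P RNA genes RMRP and RPPH1. The 6 genes were taken by symbol, and 2 of them, RN7SL1 and RN7SL3, had a row among the 28979 gene IDs of the count files. RN7SL2, RN7SK, RMRP and RPPH1 had no row and were not analysed here as genes. The files held gene-level read counts of MDA-MB-231, an established human breast cancer cell line, in 3 libraries labelled Ang and 3 labelled Con. The series design speaks of breast cancer cells exposed to exosomes, which are small secreted vesicles, from hypertrophic or from normal cardiomyocytes. No label says how Ang and Con relate to these exposures, at what dose or time, or whether the libraries of a group came from separate cultures, so the spread between libraries may be technical.

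All 6 RNAs are made by RNA polymerase III and end without the long poly(A) tail of messenger RNA. 7SL RNA is the scaffold of the signal recognition particle, which binds signal peptides as they leave the ribosome and brings the ribosome to the endoplasmic reticulum. 7SK RNA holds the kinase complex P-TEFb, which releases paused RNA polymerase II, in an inactive form. RNase P RNA trims the 5′ ends of transfer RNA precursors, and RNase MRP RNA cuts ribosomal RNA precursors. The abundant Alu repeats of the human genome descend from 7SL RNA, and the genome also holds many other copies of 7SL and 7SK. Per the labels' protocols, RNA was captured on poly-T beads, and cDNA fragments of 400 to 500 bp were selected after adapter ligation. The members' genes are shorter, at 264 to 333 bases, and what either step did to their counts was not tested.

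The 3 functional 7SL genes lie on chromosome 14, and their near identity limits what a read count can tell about any of them. Positions and comparisons are of GENCODE 29 transcripts on GRCh38. RN7SL1 is a single exon of 299 bases at chr14:49586580-49586878 on the plus strand. RN7SL3 has 299 bases at chr14:49853616-49853914 and RN7SL2 has 300 bases at chr14:49862550-49862849, both on the minus strand. Aligned with RN7SL1, RN7SL2 carries 4 substitutions and 1 base that aligns with none, an identity of 98.7%. RN7SL3 carries 7 substitutions, an identity of 97.7%.

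Most stretches of RN7SL1 are shared with other annotated genes. Of the 250 windows of 50 bases along the gene, 158 were found exactly in RN7SL2 and 86 in RN7SL3, and 39 windows (15.6%) occurred in no transcript of another gene, on either strand. With 100 bases, 51 of 200 windows (25.5%) were held by no other gene, and with 150 bases 51 of 150 (34%). The read length is not given in the sources used here, so these lengths are examples. At 30 bases the sharing was highest near the 5′ end, where the window from base 22 to base 51, counted from the 5′ end, occurred in transcripts of 755 other genes. A second rise lay near the 3′ end, where the window from base 250 to base 279 occurred in 46 other genes. How the aligner and the counter treated reads that match several copies is not given, so counts of RN7SL1 and RN7SL3 are uncertain between the copies.

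**Figure D1:**
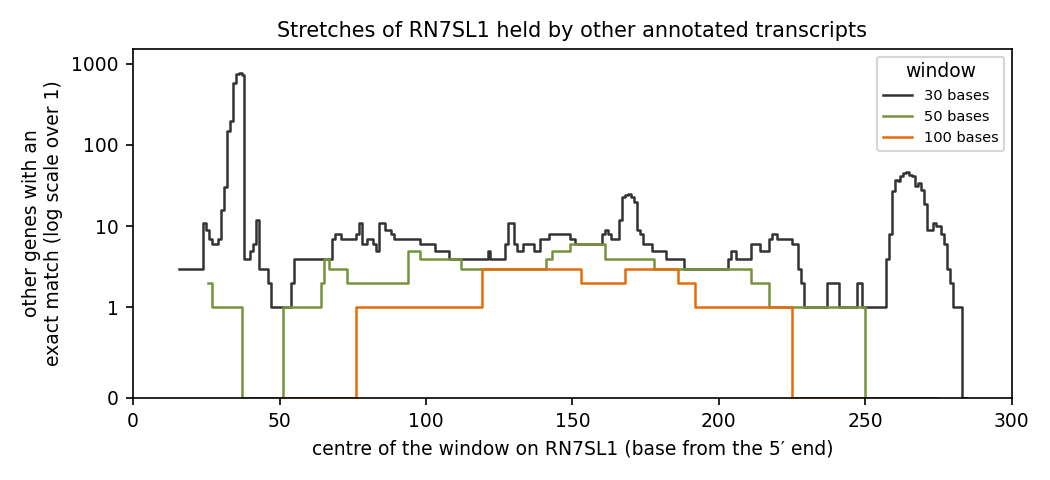
Number of other genes with an exact match (vertical axis, linear from 0 to 1 and logarithmic above) against the centre of each window along RN7SL1 in bases from the 5′ end, for windows of 30, 50 and 100 bases. The 30-base line peaks at 755 genes near the 5′ end and at 46 near the 3′ end, and the longer windows match at most 6 and 3 genes. AL139099.4, a second record over RN7SL1 itself, is not counted.

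What else is annotated at the place of each gene varied. In GENCODE 29, RN7SK (chr6:52995621-52995948) lies wholly under a second record of the same RNA, RF00100, on the same strand. RPPH1 (chr14:20343075-20343407) lies wholly under AL355075.4, a longer RNA gene on the same strand. RMRP on chromosome 9 is recorded in GENCODE 29 under a pair of gene IDs, of which 1 is in the newer symbol table. RN7SL2 has no exon of another gene over it. RN7SL1 lay under AL139099.4 in GENCODE 29, an ID that the symbol table no longer lists, and RN7SL3 has no exon over it.

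Rows were rare among small RNA genes placed like RN7SK and RPPH1. Among small RNA genes of 6 annotated types (misc_RNA, snRNA, snoRNA, scaRNA, ribozyme and vault RNA), 315 lay wholly under same-strand exons of another gene in the symbol table, and 0 of these had a row. Of the 4795 others, 778 (16.2%) had one. Counted under any GENCODE 29 gene, 318 were so placed and 1 had a row, RN7SL1 itself, against 777 of the 4792 others. Every row of the files held at least 1 count in some library, so a missing row could not be read as a measured level. The small RNA genes with a row held 0.0509% to 0.0544% of all counts in the Ang libraries and 0.0540% to 0.0647% in the Con libraries.

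Of the 6 members, 1 passed the filter on low counts, RN7SL1. It had 32, 44 and 33 counts in Ang replicates 1 to 3, which sum to 109, against a sum of 345 counts in the Con libraries, of which Con replicate 1 held 18 and Con replicate 3 held 96. Scaled to CPM, the count set against library size, with the TMM adjustment for library composition, this was 9.39, 11.1 and 9.53 in the Ang libraries, against 3.8, 39.0 and 30.2 in Con replicates 1 to 3. The Ang libraries lay close together, Con replicates 2 and 3 lay above all of them and Con replicate 1 lay below all of them, so the groups overlapped. RN7SL1 averaged 10 ± 0.946 CPM in Ang and 24.3 ± 18.3 CPM in Con (SD, n = 3 each). The fitted log2 fold change was -1.28 ± 0.64 (SE).

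The members were chosen by symbol with their counts in these 6 libraries and this contrast of RN7SL1 known, so its fold change is a description. By edgeR's quasi-likelihood test, adjusted by Benjamini-Hochberg, 0 of 1 tested member passed the threshold of 0.05, as did 0% of all 14547 tested genes. At an unadjusted p under 0.05 edgeR counted 494 of these genes, a smaller share than the 0.05 that unchanged genes would give on average. At the adjusted threshold DESeq2 and limma-voom also called 0. Without Con replicate 1 the log2 fold change of RN7SL1 was -1.80 ± 0.32 and passed the threshold, where 0.00668% of 14972 genes did. Without Con replicate 2 it was -0.71 ± 0.52, and limma-voom on all 6 libraries gave -0.71 ± 0.46, neither past it. The value was negative in all 12 alternatives run, and the call depended on whether Con replicate 1 was included. The SE also depended on filter and tool: over all 6 libraries it was 0.32 with no low-count filter and 0.85 by DESeq2. The groups overlapped for both RN7SL1 and RN7SL3, where Ang lay wholly below Con for 4.54% of tested genes, wholly above for 3.62% and either way for 8.16%. In bulk libraries, fewer cells of a type and less RNA per cell cannot be told apart.

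**Figure D2:**
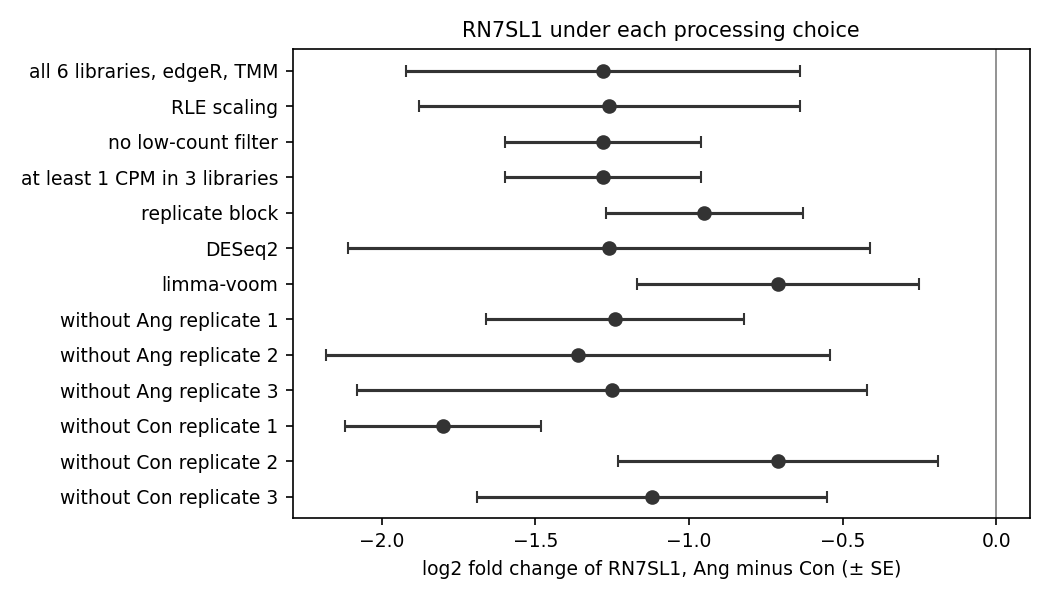
Log2 fold change of RN7SL1, Ang minus Con, with its SE (horizontal axis) under the main analysis and each of 12 alternatives (vertical axis). All values lie below 0, between -1.80 without Con replicate 1 and -0.71 without Con replicate 2 or with limma-voom.

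**Figure D3:**
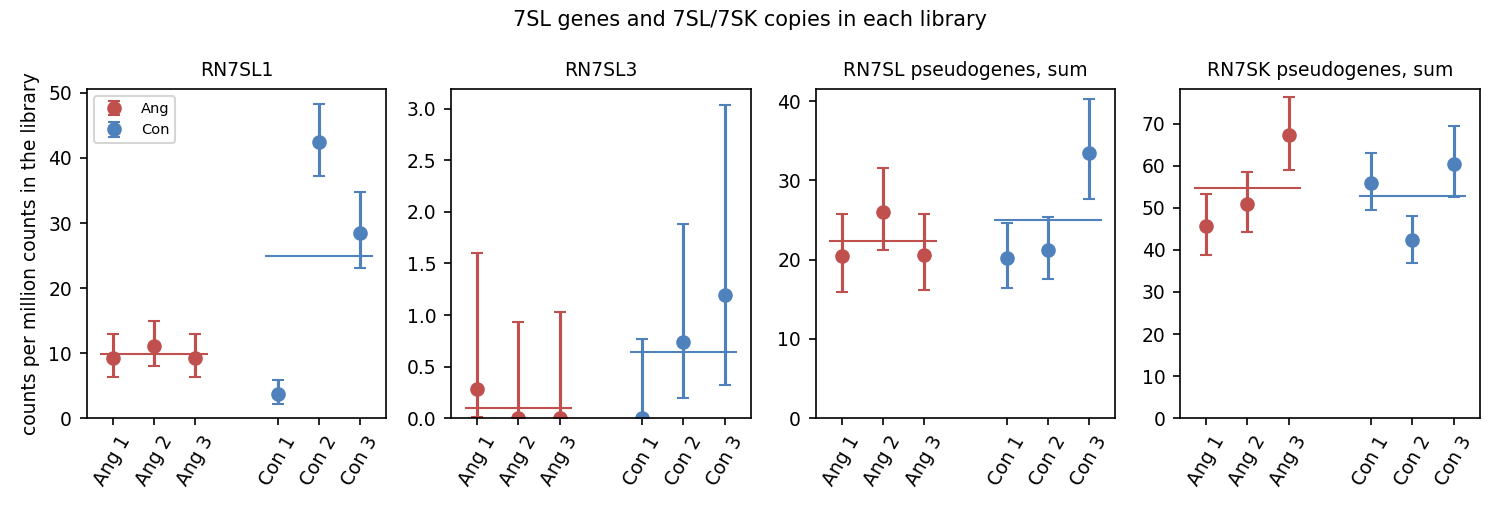
CPM of the library total, without TMM scaling, for RN7SL1, RN7SL3, the summed RN7SL pseudogenes and the summed RN7SK pseudogenes in each Ang and Con library; bars are exact 95% binomial intervals and lines are group means. RN7SL1 lies between 9.18 and 11.1 in the Ang libraries and at 3.74, 42.5 and 28.5 in the Con libraries.

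The spread of RN7SL1 among the Con libraries was wider than binomial counting error, which takes each read as independent although the libraries were amplified by PCR. Without TMM scaling, Con replicate 1 had 3.74 CPM, with an exact 95% binomial interval of 2.22 to 5.92. Con replicate 2 had 42.5, with an interval of 37.2 to 48.3, and Con replicate 3 had 28.5, with an interval of 23.1 to 34.8. The 3 Con intervals did not overlap, while those of the 3 Ang libraries did, running from 6.28 to 14.9 in all.

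Few genes of a like level varied as much among the Con libraries. Over the 5725 tested genes within 2-fold of the mean of RN7SL1 (17.2 CPM), the highest over the lowest library, with 0.5 CPM added to each, had a median of 1.44 in Ang and 1.57 in Con. The 95th percentile was 2.35 in Ang and 2.69 in Con. RN7SL1 had a ratio of 1.17 in Ang, where 4990 of these genes (87.2%) were wider, and a ratio of 9.19 in Con, where 1 gene was wider. That gene, LINC02367, a long non-coding RNA gene named after its values were seen, had 13.2, 9.58 and 12.1 CPM in the Ang libraries, against 0.422, 10.6 and 25.8 CPM in the Con libraries. The spread of RN7SL1 is a description of a gene picked with its values known.

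**Figure D4:**
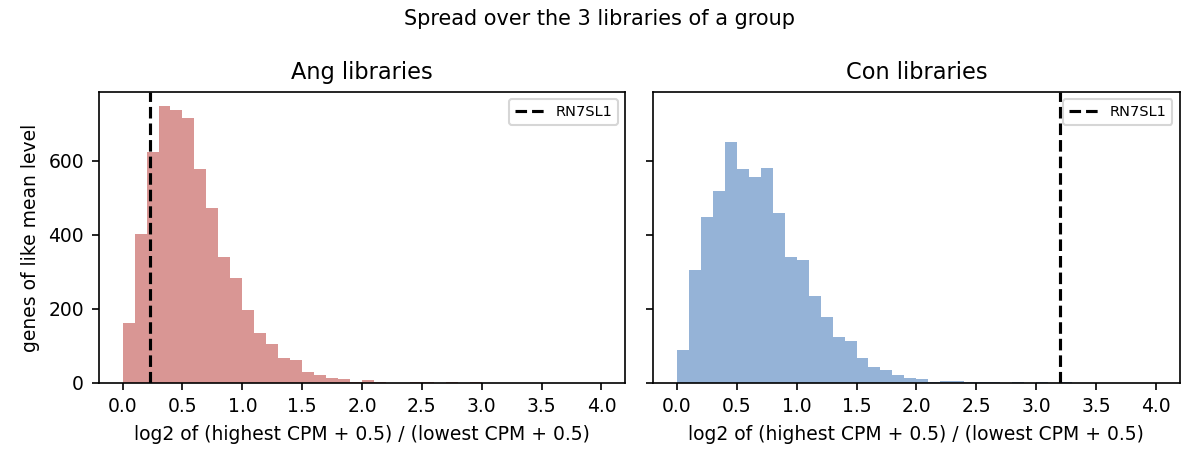
Number of tested genes of like mean level (vertical axis) by the log2 ratio of the highest to the lowest of the 3 libraries (horizontal axis, 0.5 CPM added), for Ang and for Con, with RN7SL1 as the dashed line. RN7SL1 lies at a ratio of 1.17 among the Ang libraries and at 9.19, at the far edge, among the Con libraries.

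The library with the most RN7SL1 also stood apart in strand composition. Over 250 pairs of a non-coding gene lying under a coding gene on the other strand, the non-coding gene had more counts per base, by a median factor of 32.9 to 35.4 in the Ang libraries. It was 39.3, 23.2 and 41.1 in Con replicates 1 to 3. Con replicate 2 had the most RN7SL1 and the lowest ratio, and Con replicate 3, with the next most RN7SL1, had the highest ratio. Con replicate 2 was also the deepest library, with 5437190 counts, and had the most genes with a count, 22778. Genes free of other-strand exons held 23.8% to 25.5% of all counts in the Ang libraries. In the Con libraries they held 21.7% to 28.7%. No strand-marking step is named in the protocol, and the strand setting of the counter is not given. With such ratios, the counts of RN7SL1 and of every other gene named here may hold reads from the opposite strand. Which strand these reads came from was not tested, nor was the part of this in the spread of RN7SL1.

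RN7SL1 lies inside the body of RPS29, a ribosomal protein gene on the minus strand, but under none of its exons. RPS29 had 119, 101 and 99.9 CPM in the Ang libraries, against 134, 116 and 88.4 CPM in the Con libraries. RPS29 was highest in Con replicate 1, where RN7SL1 was lowest, and lowest in Con replicate 3. Its log2 fold change was -0.08 ± 0.18. RNA from the part of the RPS29 body over RN7SL1 was not measured apart. Its share in the counts of RN7SL1 was not tested.

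RN7SL3, the second 7SL gene with a row, was close to the detection limit. It had 1, 0 and 0 counts in Ang replicates 1 to 3, against 0, 4 and 4 counts in Con replicates 1 to 3. Its counts lay in Con replicates 2 and 3, the libraries in which RN7SL1 was highest, and in 1 Ang library. A count of 0 allows up to 3 counts, or 0.757 CPM in Ang replicate 2, 0.834 CPM in Ang replicate 3 and 0.624 CPM in Con replicate 1 before TMM scaling. The exact 95% binomial intervals plotted for the same zeros reach further, to 0.931, 1.03 and 0.767 CPM. The depth-scaled ratio of Ang over Con was 0.154, with an exact interval of 0.00347 to 1.15. These intervals and limits cover counting error only, since reads copied by PCR and lacking molecular identifiers are not independent.

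Per kilobase of gene, RN7SL1 stood above RN7SL3 in every library. RN7SL1 had 31.4, 37.1 and 31.9 CPM per kilobase in the Ang libraries, against 12.7, 131 and 101 CPM per kilobase in the Con libraries. RN7SL3 had 0.327 ± 0.567 CPM per kilobase in Ang and 2.16 ± 2.11 in Con (SD, n = 3 each), with no overlap with RN7SL1. Among all genes with a count, RN7SL1 lay above 90.5% to 92.0% of them by CPM per kilobase in the Ang libraries. In Con replicates 1 to 3 it lay above 81.9%, 97.8% and 96.2%. The median detected gene had 2.20 to 2.45 CPM per kilobase.

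Other annotated copies of 7SL together carried more counts than the 2 functional genes in most libraries. Of 677 RN7SL pseudogenes in the annotation, 99 (14.6%) had a row, and 53 of these were counted in 1 library alone. They summed to 71, 103 and 74 counts in the Ang libraries, against 97, 115 and 113 counts in the Con libraries. RN7SL1 and RN7SL3 together had 33, 44 and 33 counts in the Ang libraries, against 18, 235 and 100 counts in the Con libraries. The summed pseudogenes thus had more counts than the functional genes in every Ang library and in Con replicates 1 and 3, and not in Con replicate 2. These sums set 99 copies against 2 genes, without scaling for length. The median copy with a row had 2 counts over all libraries, against 454 for RN7SL1 and 9 for RN7SL3.

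The summed pseudogenes did not show the spread of RN7SL1. In CPM of the library total they came to 22.3 ± 3.19 in Ang and 25.0 ± 7.45 in Con (SD, n = 3 each). Con replicate 2, with the most RN7SL1, had 21.2, within the 20.4 to 26.0 of the Ang libraries, and Con replicate 3 was the highest at 33.5. The copies with a row matched a median of 79.9% of the bases of RN7SL1, and the closest matched 88.0%.

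Of single copies, RN7SL417P on chromosome 15 was the most counted and the only one to pass the filter. It had 9, 17 and 20 counts in the Ang libraries, against 5, 14 and 17 counts in the Con libraries, with a log2 fold change of 0.58 ± 0.69. It lies in the body of AC243562.2 on the same strand, a gene with 71 to 85 counts in the Ang libraries and 83 to 132 in the Con libraries. RN7SL268P on chromosome 22 had 10, 8 and 7 counts in Ang and 5, 9 and 11 counts in Con. RN7SL573P on chromosome 17 had 8, 8 and 8 counts in Ang and 1, 1 and 5 counts in Con. All of its bases lie under an exon of ATP5PD, an ATP synthase subunit gene, on the other strand, so reads of the pair cannot be told apart without a stated strand setting. It also lies in the body of KCTD2 on the same strand, which had 889 to 1048 counts in the Ang libraries and 912 to 1537 in the Con libraries.

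For 7SK, whose own gene had no row, 30 of 293 annotated pseudogenes did. They summed to 159, 202 and 242 counts in the Ang libraries, against 269, 230 and 204 counts in the Con libraries. A single locus, RN7SKP23 on chromosome 16, held 62.2% of these counts, with 106, 118 and 174 counts in Ang and 159, 121 and 134 counts in Con. Its gene model spans 4301 bases, against 328 bases of RN7SK, so most of it is other sequence. Without it, the sums were 18.4 ± 3.02 CPM of the library total in Ang and 21.2 ± 1.47 in Con (SD, n = 3 each).

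The next copies were much smaller. RN7SKP287 on chromosome 11 had 20, 22 and 43 counts in Ang, against 45, 30 and 23 counts in Con, and RN7SKP150 on chromosome 5 had 13, 7 and 13 counts in Ang, against 25, 8 and 6 counts in Con. The log2 fold changes of the 3 tested 7SK copies were 0.22 ± 0.24 for RN7SKP23, 0.13 ± 0.44 for RN7SKP287 and 0.12 ± 0.72 for RN7SKP150. The groups overlapped for each, and 0 of the 3 passed the threshold by edgeR. RN7SKP150 lies in the body of MRNIP on the other strand, which had 18531 to 20733 counts in the Ang libraries and 19915 to 25934 in the Con libraries. RN7SKP23 and RN7SKP287 also lie in the bodies of other-strand genes, COG7 and TTC17, and RN7SL268P in that of SLC2A11. All 3 fold changes turned negative when Ang replicate 3 or Con replicate 2 was left out. Except for RN7SKP23, the copies with a row matched a median of 74.4% of the bases of 7SK.

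RPPH1 can be described only through its surroundings. AL355075.4, the minus-strand RNA gene that covers it (chr14:20343048-20343685), had 68, 82 and 62 counts in the Ang libraries, against 151, 115 and 77 counts in the Con libraries. This was 19.5 ± 1.43 CPM in Ang and 25.2 ± 6.28 CPM in Con (SD, n = 3 each), and the groups overlapped through Con replicate 2 at 19.4 CPM. The log2 fold change was -0.36 ± 0.28. PARP2, the DNA repair gene that starts beside RPPH1 on the plus strand, averaged 33.1 ± 2.81 CPM in Ang and 34.2 ± 5.77 CPM in Con. Its start, at base 20343582, lies within the span of AL355075.4. Whether counts of AL355075.4 are RNase P RNA, or reads of PARP2, was not tested.

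The tested neighbours of the other members gave 0 calls by edgeR. NEMF, a gene of ribosome quality control that starts beside RN7SL3 on the same strand, averaged 335 ± 19.5 CPM in Ang and 322 ± 39.2 CPM in Con. GSTA4, a glutathione transferase gene that starts beside RN7SK on the minus strand, averaged 4.30 ± 2.03 CPM in Ang and 6.49 ± 2.21 CPM in Con. CCDC107, which starts beside RMRP on the plus strand, averaged 25.9 ± 6.75 CPM in Ang and 21.1 ± 5.18 CPM in Con. AL627171.2, whose body spans RN7SL2 with no exon over it, had 8, 0 and 5 counts in the Ang libraries, against 6, 3 and 0 counts in the Con libraries. AL627171.1, which starts beside RN7SL2 on the plus strand, had 3, 6 and 4 counts in Ang, against 6, 6 and 7 counts in Con. Neither AL627171.2 nor AL627171.1 was tested.

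Other small structural RNAs had few counts as well. Of 48 listed genes of Y RNAs, vault RNAs, spliceosomal RNAs, Cajal body RNAs and nucleolar RNAs, 6 had a row and 0 passed the filter. RNU5F-1, a U5 spliceosomal RNA gene, had the most, with 4, 1 and 1 counts in the Ang libraries, against 6, 3 and 0 counts in the Con libraries. SNORD17, a nucleolar RNA gene, had 0, 2 and 4 counts in Ang and 0 in each Con library. The remaining 4 had 1 to 3 counts over all libraries.

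The genes whose pattern was most like that of RN7SL1 were sought among 8546 genes of at least 10 CPM, by Pearson's r of log2 CPM over the 6 libraries. The closest were CREB3L1, a transcription factor gene of the endoplasmic reticulum membrane (r = 0.983), NEAT1, the nuclear RNA that builds paraspeckles (r = 0.982), and SCAF8, which encodes a protein that binds RNA polymerase II (r = 0.980). In all, 14 genes had r over 0.95, and 20 genes had the same rank order of libraries as RN7SL1. With so many genes and 6 points that share library depth, such values are a description alone.

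NEAT1 showed the same order at far higher counts. It had 1419, 1695 and 1458 counts in the Ang libraries, against 1457, 3448 and 1637 counts in the Con libraries, which is 416, 427 and 421 CPM in Ang, against 308, 583 and 515 CPM in Con. Like RN7SL1, it was narrow among the Ang libraries, lowest in Con replicate 1 and highest in Con replicate 2. The Con libraries differed 1.89-fold in NEAT1 and 10.3-fold in RN7SL1. CREB3L1 had 27.9, 29.2 and 28.3 CPM in Ang and 24.1, 38.9 and 33.7 CPM in Con. The log2 fold changes were -0.15 ± 0.17 for NEAT1, -0.18 ± 0.25 for CREB3L1 and -0.16 ± 0.27 for SCAF8.

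Genes whose proteins work with 7SL RNA had counts in these libraries. As for RN7SL1, which strand the reads of these and the later partner genes came from was not tested. The 8 genes of the signal recognition particle and its receptor all passed the filter and 0 of them passed the threshold by edgeR, with 0 at an unadjusted p under 0.05. Their log2 fold changes ran from -0.22 to -0.02 with a median of -0.14, all below 0, where 49.2% of all tested genes were above 0 and the median was -0.01. The signs did not all hold with 1 library left out: SRP72 was at 0.13 without Con replicate 1, and SRPRA at 0.04 without Ang replicate 3 or without Con replicate 2. SRP72, a core protein of the particle, averaged 110 ± 8.37 CPM in Ang and 120 ± 34.7 CPM in Con. SRP9 and SRP14, which bind the Alu domain of 7SL RNA as a pair, had log2 fold changes of -0.22 ± 0.19 and -0.15 ± 0.18. SRPRA, the receptor subunit that docks the particle, was at -0.02 ± 0.18. SRP14 had 77.4 ± 2.99 CPM in Ang and 86.3 ± 7.51 CPM in Con. It was the 1 gene of this list with Ang wholly below Con, as was so for 4.54% of all tested genes.

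The translocon and signal peptide processing genes, which act after the particle, had 7 of 16 values above 0, a median of -0.02 and 0 calls by edgeR. SEC61A2, which encodes a form of the channel subunit, averaged 169 ± 5.91 CPM in Ang and 157 ± 33.9 CPM in Con, and SSR1, a translocon-associated protein gene, averaged 93.5 ± 5.88 and 110 ± 10.2 CPM in Ang and in Con (-0.24 ± 0.18). SSR1 was the 1 gene of this list with Ang wholly below Con, as was so for 4.54% of all tested genes. SSR3, of the same protein complex, had a log2 fold change of 0.23 ± 0.19.

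The partners of 7SK gave no call either. Of the 7 genes of the 7SK particle and P-TEFb, 2 had values above 0 and the median was -0.07. LARP7, which protects the 3′ end of 7SK, averaged 45.9 ± 11.3 CPM in Ang and 48.0 ± 8.72 CPM in Con, and HEXIM1, the inhibitor that 7SK presents to P-TEFb, averaged 61.8 ± 6.90 CPM in Ang and 59.9 ± 20.9 CPM in Con. MEPCE, the capping enzyme of 7SK, was at -0.34 ± 0.39 and CDK9, the P-TEFb kinase, at -0.29 ± 0.33 on the log2 scale. MEPCE had 17.9 CPM in Con replicate 2, against 7.18 and 6.92 CPM in Con replicates 1 and 3, and without Con replicate 2 its value was 0.29.

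Among 8 tested recruiters of P-TEFb, 6 had values above 0 with a median of 0.10 and 0 calls by edgeR. EAF1, a cofactor of the ELL elongation factors, had a log2 fold change of 0.83 ± 0.30 and was the 1 gene of the list at an unadjusted p under 0.05. It averaged 24.1 ± 6.66 CPM in Ang and 13.4 ± 3.31 CPM in Con. Its groups did not overlap, as was so with Ang above Con for 3.62% of all tested genes, and 40.8% of its exon bases lie under exons on the other strand. AFF1 was at -0.31 ± 0.21, AFF4 at -0.02 ± 0.18 and ELL2 at 0.03 ± 0.19.

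Of 11 RNase P and RNase MRP protein genes, 7 passed the filter, 3 of them with values above 0, with a median of -0.10 and 0 calls. RPP38 had the highest CPM, at 87.9 ± 2.88 in Ang and 97.5 ± 30.1 in Con, and 26.9% of its exon bases lie under exons on the other strand. RPP30 averaged 14.7 ± 3.81 CPM in Ang and 11.2 ± 2.36 CPM in Con (0.37 ± 0.34). RPP25 had the lowest value, -1.29 ± 0.73, with 1.80 ± 1.70 CPM in Ang and 4.29 ± 3.07 CPM in Con. It was -2.38 without Ang replicate 3 and -0.68 without Con replicate 1.

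RNA polymerase III, which makes the 6 RNAs, and its factors had a median close to that of all genes. Of the 30 tested genes, 16 had values above 0, the median was 0.00 and edgeR called 0. SSB, which encodes the La protein that binds the 3′ ends of polymerase III transcripts, averaged 215 ± 16.4 CPM in Ang and 224 ± 17.9 CPM in Con. SNAPC3, of the complex that binds the promoters of 7SK and RNase P genes, was at -0.29 ± 0.21, and TBP, the TATA-binding protein gene, at 0.57 ± 0.41.

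**Figure D5:**
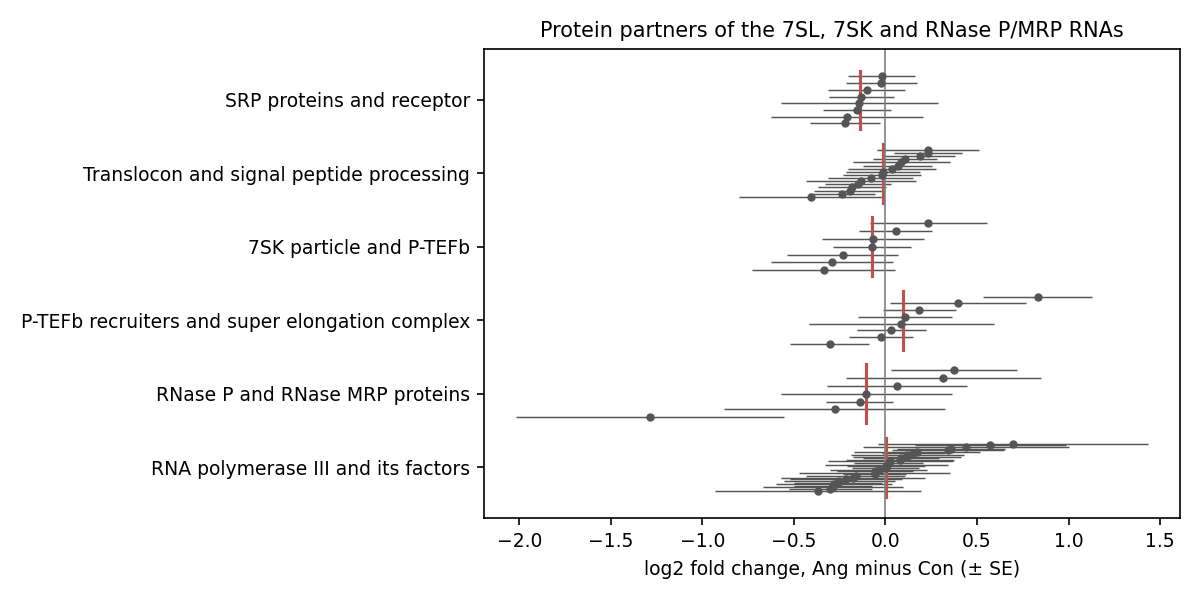
Log2 fold change of Ang over Con with its SE (horizontal axis) for each tested gene of the 6 lists of protein partners, sorted within a list, with the list median as a vertical bar. Medians lie between -0.14 for the signal recognition particle and 0.10 for the recruiters of P-TEFb, and no gene passed the threshold.

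The libraries held 3482629 to 3961442 counts in Ang and 3369212 to 5437190 counts in Con. VIM, the vimentin gene of mesenchymal cells, averaged 1030 ± 49.6 CPM in Ang and 928 ± 152 CPM in Con, and the epithelial cadherin gene CDH1 0.914 ± 0.870 and 0.851 ± 1.02 CPM in Ang and in Con. ESR1, the estrogen receptor gene, had 7 counts in all and EPCAM, an epithelial marker, averaged 9.76 ± 0.717 CPM in Ang and 9.83 ± 0.362 CPM in Con.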

How the data were processed

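Per the labels' protocols, poly-T captured RNA of MDA-MB-231 cells was broken up and copied from random primers. The authors deposited unnormalized counts for Ensembl genes, in 1 table per library. HTSeq 0.9.1, DESeq 1.39.0 and build GRCh38 come from the submitters' processing notes. Not given in the sources used here are the aligner, annotation release, strand setting and treatment of multiply matching reads. No row lacked a gene, and 28918 of 28979 IDs had a symbol. Gene types, exons and compared transcripts came from GENCODE 29, intersected with bedtools 2.31.1.

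From the deposited counts, edgeR 4.0.16 (R 4.3.3) was run with filterByExpr, TMM scaling and the robust quasi-likelihood test of Ang against Con, 3 libraries each, with no term for replicates. Benjamini-Hochberg adjustment of p-values covered all 14547 tested genes with a threshold of 0.05; since no label names separate cultures, the p-values may reflect technical variation alone. The SE of a log2 fold change is its size divided by the square root of the quasi-likelihood F. Log2 CPM for the search for like patterns used a prior count of 2. Pseudogene identity is the share of bases of RN7SL1 or RN7SK matched in a global alignment. Pairs for the strand ratio had at least 90% of the non-coding gene's exon bases under 1 coding gene of at least 300 counts, with 0.5 added to each count. In simulated counts for these 14547 genes, 46.0% of 2-fold and 86.0% of 4-fold changes were called, and 5.17% of calls were false. The simulated counts were drawn independently for each gene and library, so they held no library that departs over many genes. Whether these shares hold for the real libraries was not tested.

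Of each partner list, the 2 most abundant genes and the 2 of smallest p were named, of each pseudogene list the 3 most abundant, of like genes the 3 of highest r, and of neighbours the nearest gene on the other strand or starting within 1000 bases. The 7SL sequences and 1 gene of the polymerase III list that this rule names are not reported here. The members and lists were chosen with earlier results of these data known. Alternatives were RLE scaling, no filter, a filter of 1 CPM in 3 libraries, a replicate block, DESeq2 1.42.0, limma-voom (limma 3.58.1), leaving out each library, other sums and Spearman's rho.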

Additional observations from a re-analysis of the deposited data

How the results depend on the processing

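Over 14547 tested genes 0 were called, and this stayed at 0 under RLE scaling, no filter, the CPM filter, DESeq2 and limma-voom. Leaving out 1 library gave 0 to 40 genes, with RN7SL1 as the 1 gene when Con replicate 1 was dropped, and 40 when Con replicate 2 was; the cause was not tested. Genes of the partner lists stayed at 0 calls in each setting run. The log2 fold change of RN7SL1 was -1.28 with all libraries, -1.80 without Con replicate 1, where it passed the threshold, and -1.80 to -0.71 leaving out 1 library in turn. Outside that 1 setting its adjusted p by edgeR, DESeq2 or limma-voom was 0.684 or higher. As for a replicate block, deviations from group means correlated at 0.0370, 0.0675 and 0.0356 between same-numbered libraries. Between differently numbered libraries of the groups the values were lower, from -0.0697 to 0.0302. All were small and no label says that a number is shared, so whether the numbers pair libraries is not settled. The block gave 0 genes, 0 partner genes and -0.95 for RN7SL1. The summed 7SL genes came to 9.92 CPM of the library total in Ang and 25.5 in Con, and, by construction, to 32.2 in Ang and 50.5 in Con with the pseudogenes. Leaving out 1 library moved them between 9.33 and 10.3 in Ang and between 16.7 and 36.5 in Con. The RN7SL3 ratio ran from 0 to 0.240, with 0 when the Ang library that held its 1 count was left out. Among the other named genes, 411 alternative values had the same sign and no call, and 33 changed sign with no call. With 454 counts of RN7SL1 in all, differences within the spread among Con libraries could not be shown, and RN7SL3 was too low to compare.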
